A study of Mus musculus with 4 samples.

Results

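The genes described here encode the liver's machinery for burning fatty acids, from activation of the acid to the making of ketone bodies. They were taken by symbol, after the Ensembl identifiers of the count tables had been matched to mouse gene symbols. The list covers fatty acid activation and carnitine steps, mitochondrial and peroxisomal beta-oxidation, electron transfer, acyl-CoA thioesterases and a ketone body enzyme. It also holds the regulator Ppara and 2 genes listed as its targets, Pdk4 and Vnn1. The list held 34 genes, and 34 were found among the 48709 genes counted. In each library every one of the 34 had at least 33 reads, and 34 passed edgeR's filter on low counts.

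Liver RNA from untreated adult C57BL/6 mice was sequenced as 4 mRNA libraries. There were 2 libraries from WT littermates, which carry the floxed DDI2 allele (DDI2 flox/flox) but no Cre recombinase, and 2 from DDI2-KO mice (DDI2 flox/flox Alb Cre+). In the latter Cre is driven by the albumin promoter, which the study used for a deletion specific to the liver. Which liver cells lost the gene was not measured here. The study used mice of both sexes, and the labels give no sex for a library. The comparison addresses what changes in the resting liver when DDI2, the protease needed for activation of NRF1, is deleted. Reads on genes numbered 34109018 and 31532247 for WT, against 25582344 and 22501208 under the DDI2-KO label.

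Fatty acids are activated to acyl-CoA, carried into mitochondria as carnitine esters and shortened there by repeated rounds of oxidation, hydration, oxidation and thiolytic cleavage. Peroxisomes shorten very long chains by a parallel route, and thioesterases release free acids from acyl-CoA. In the fasting liver the acetyl-CoA formed feeds ketone body synthesis, and the nuclear receptor PPARalpha, encoded by Ppara, switches on many of these genes.

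The targeted gene, Ddi2, was measured at 141 and 123 CPM (counts scaled to library size) in WT libraries 1 and 2 and at 157 and 164 CPM in libraries 1 and 2 labelled DDI2-KO. Its mRNA count was thus not lower under the DDI2-KO label (log2 fold change 0.28, standard error 0.17, Benjamini-Hochberg adjusted p = 0.349, edgeR quasi-likelihood test). Counts over a whole gene do not show whether an exon was deleted, so the libraries are called by their label throughout. Mt1, a metallothionein gene, fell from 97.3 and 47.0 CPM in WT to 5.41 and 4.66 CPM in the libraries labelled DDI2-KO. This was a log2 fold change of -3.84 (standard error 0.39, Benjamini-Hochberg adjusted p = 0.0186, edgeR quasi-likelihood test), a call lost without library 1 (0.187) or library 2 (0.185) labelled DDI2-KO. Its neighbour Mt2 was at 51.8 and 13.7 CPM in WT and at 0.927 and 1.00 CPM under the DDI2-KO label, its log2 fold change being -5.08 (standard error 0.90), which left it short of the threshold (adjusted p = 0.0803 in that edgeR test). Mt2 passed in 5 of 15 alternatives, among them the fits without WT library 1 (-3.82) and without WT library 2 (-5.74), and its adjusted p rose to 0.435 without library 1 labelled DDI2-KO.

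Most fatty acid oxidation genes lay modestly higher in the libraries labelled DDI2-KO, and 2 of the 34 passed the test. Pdk4 and Acot4 were higher with a Benjamini-Hochberg adjusted p under 0.05 in the edgeR quasi-likelihood test, which is 5.88% of the 34 against 2.53% of the 13699 genes tested in either direction and 1.33% of them called higher. At an adjusted p under 0.10 there were 5 of 34, or 14.7%, against 9.35% of the genes tested. DESeq2 called 7 of 34 (20.6%), against 4.32% of the 21099 genes it tested, and limma-voom called 1 (2.94%), against 0.993% of 13699. By an unadjusted p under 0.05, 13 of 34 (38.2%) were higher and 0 lower, against 12.0% and 11.5% of the genes tested. The estimate was above 0 for 33 of the 34, against 48.7% of the genes tested, with Acaa1a as the exception. Their median log2 fold change was 0.39, and that of all genes tested was -0.015. Both WT libraries were exceeded by both libraries labelled DDI2-KO in 21 of 34 genes (61.8%, against 28.0% of the genes tested), and both lay below in 0 of 34, against 27.7%. Well expressed genes leaned the same way, though less: of 7380 genes that averaged 10 CPM or more, 56.4% had a higher estimate and the median was 0.062. In bulk tissue a higher count may reflect more cells that make an RNA or more RNA per cell, and these cannot be told apart.

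**Figure D1:**
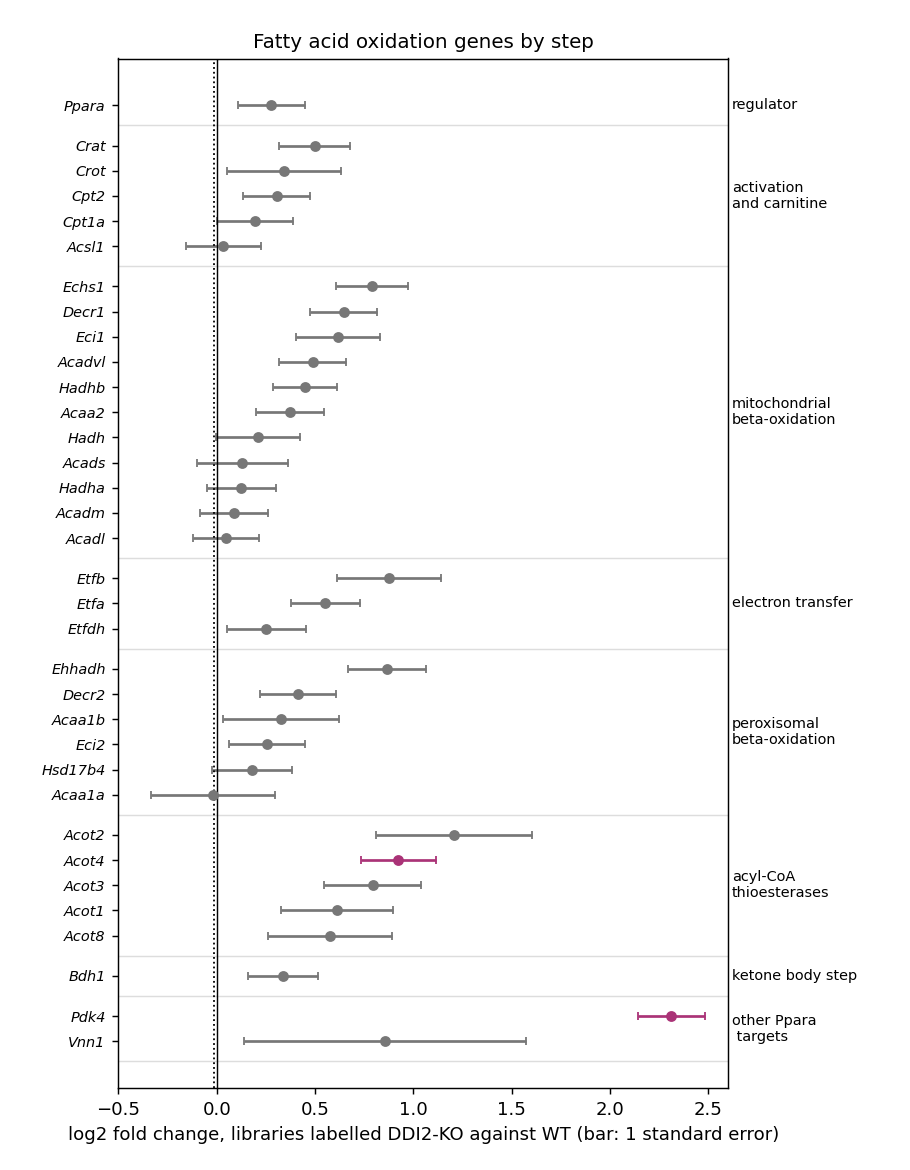
Log2 fold change of each of the 34 genes (libraries labelled DDI2-KO against WT, 2 libraries a group), grouped by step, with bars of 1 standard error. Purple marks Pdk4 (2.31) and Acot4 (0.92), which had an adjusted p under 0.05, and the dotted line is the median of all genes tested (-0.015).

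The 34 genes also varied together between libraries of 1 group. Relative to the mean of the WT libraries, the median of the 34 was 0.11 and -0.12 (log2) in WT libraries 1 and 2, and 0.52 and 0.25 in libraries 1 and 2 labelled DDI2-KO. Both libraries with the DDI2-KO label thus lay above both WT libraries, and library 1 was the higher in each group. WT library 1 exceeded WT library 2 in 29 of the 34 genes, and library 1 exceeded library 2 under the DDI2-KO label in 29, or 85.3% each time, against 49.8% and 50% of all genes tested. The genes are therefore not independent measurements of the genotype, and their shared direction rests on 2 libraries a group. Leaving out WT library 2 lowered the median to 0.27 and the number of higher estimates to 29, and leaving out library 1 labelled DDI2-KO gave 0.25 and 28. Without WT library 2 the number of genes called was 1, and without library 2 labelled DDI2-KO it was 4.

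**Figure D2:**
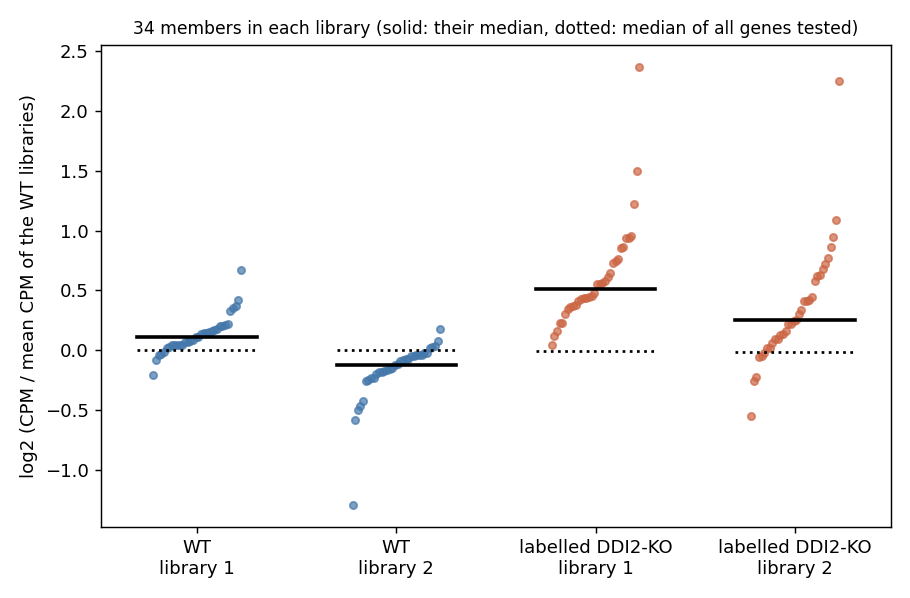
Log2 of each gene's CPM over its mean in the WT libraries, 1 point for each of the 34 genes in each of the 4 libraries. Solid bars are the medians of the 34 genes (0.11, -0.12, 0.52 and 0.25), and dotted bars are the medians of all genes tested, which lie close to 0.

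Several measures of the RNA itself moved with the genotype label. Relative to reads on genes, those outside annotated genes made up 5.11% and 4.70% in WT and 2.53% and 3.65% under the DDI2-KO label. Genes of the mitochondrial chromosome took 10.5% and 9.91% of reads in WT and 5.28% and 6.34% under the DDI2-KO label. The nuclear RNA Malat1 had 1894 and 1843 reads in WT and 522 and 625 under the DDI2-KO label, where libraries were also smaller. Without the genes of the mitochondrial chromosome, a setting chosen after seeing the data, the median of the 34 genes was 0.39 and 2 were called. Another nuclear RNA, Neat1, had 5411 and 3148 reads in WT and 749 and 1100 under the DDI2-KO label. Ambiguous reads numbered 851423 and 799880 in WT and, in the smaller libraries labelled DDI2-KO, 891639 and 822585. Alignments that were not unique, relative to reads on genes, were 65.8% and 51.8% in WT and 49.2% and 47.3% under the DDI2-KO label. What part the other measures have in the differences was not tested.

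Pdk4 encodes the kinase that shuts off pyruvate dehydrogenase and so spares glucose when fat is burned. It is listed here as a classical target of PPARalpha. Pdk4 (ENSMUSG00000019577, minus strand of chromosome 6 of GRCm38, 5483351 to 5496309) had 6.78 and 6.93 CPM in the WT libraries and 35.5 and 32.6 CPM in the libraries labelled DDI2-KO. The libraries of each group lay close together, and the groups were far apart. This was 6.85 ± 0.102 CPM (SD, n = 2) against 34.1 ± 2.00 CPM (SD, n = 2), or 4.97-fold. The log2 fold change was 2.31 (standard error 0.17, Benjamini-Hochberg adjusted p = 0.00911, edgeR quasi-likelihood test). It was past the threshold in each of 15 alternative settings, with log2 fold changes of 2.22 to 2.38 and adjusted p of up to 0.0206.

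Vnn1, the pantetheinase gene that is another well known target of PPARalpha, looked different. It had 64.2 and 16.5 CPM in WT libraries 1 and 2 and 68.2 and 77.8 CPM in the libraries labelled DDI2-KO. WT library 1 lay just under the libraries labelled DDI2-KO, while WT library 2 was far lower. Its log2 fold change was 0.85 (standard error 0.72, Benjamini-Hochberg adjusted p = 0.555, edgeR quasi-likelihood test). The value rests on which WT library is used: without WT library 1 it was 2.15 (adjusted p = 0.00550 in that edgeR test), and over the alternatives it ranged from 0.19 to 2.15, with adjusted p of 0.00550 to 0.826.

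**Figure D3:**
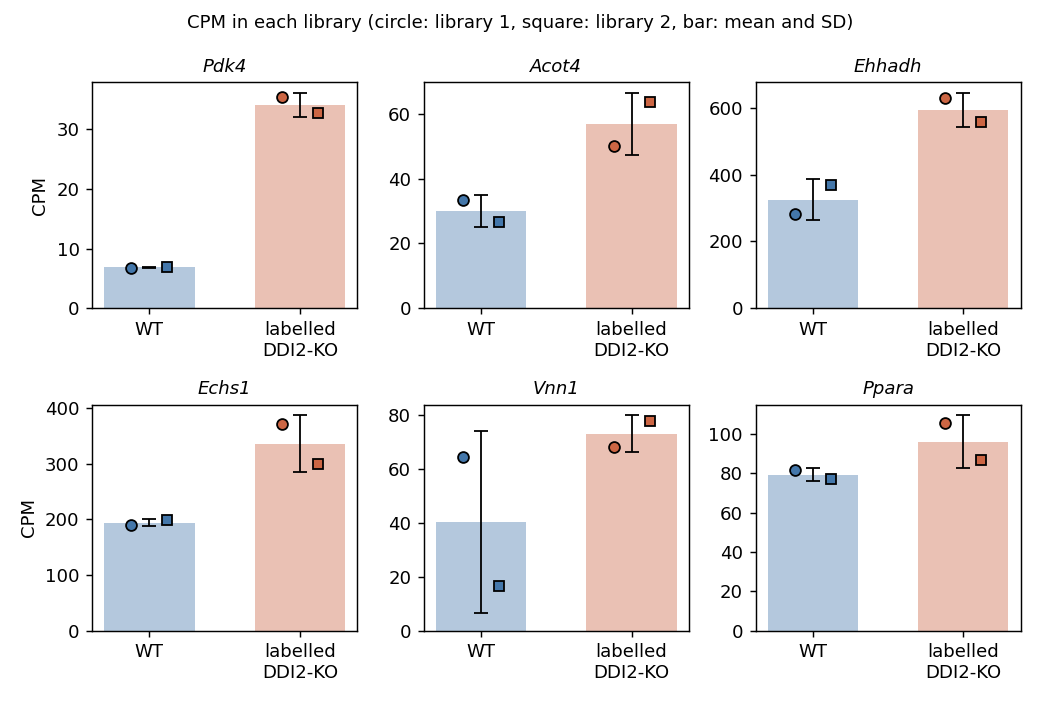
CPM of 6 genes in each library, with bars for the mean and SD of 2 libraries a group and axes starting at 0. Pdk4 separates the groups with little spread (6.78 and 6.93 against 35.5 and 32.6 CPM), whereas Vnn1 differs mostly between the WT libraries (64.2 and 16.5 CPM).

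Ppara itself had 81.6 and 77.1 CPM in WT and 106 and 86.9 CPM in the libraries labelled DDI2-KO (ENSMUSG00000022383, plus strand of chromosome 15 of GRCm38, 85734983 to 85802819). Both libraries labelled DDI2-KO were higher, while the group means differed by less than the libraries of that group did. The log2 fold change was 0.28 (standard error 0.17, Benjamini-Hochberg adjusted p = 0.362, edgeR quasi-likelihood test), and 0.13 without library 1 labelled DDI2-KO or 0.14 under the length and GC offsets.

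The first steps attach coenzyme A and then carnitine to the fatty acid. Of the 5 genes of these steps 0 passed edgeR's test, 1 was higher at an unadjusted p under 0.05, and DESeq2 and limma-voom called 0. Over all genes tested, edgeR called 2.53%, and 12.0% were higher at an unadjusted p under 0.05. DESeq2 called 4.32% of the genes it tested and limma-voom 0.993%. These shares are the background for the counts of each step. The median log2 fold change of the 5 genes was 0.31. It was 0.10 without library 1 labelled DDI2-KO, 0.17 without WT library 2 and 0.16 under the length and GC offsets. Crat, the carnitine acetyltransferase that exports short acyl groups, had 44.6 and 34.3 CPM in WT and 58.8 and 52.6 CPM in the libraries labelled DDI2-KO. The groups did not overlap (log2 fold change 0.50, standard error 0.18, Benjamini-Hochberg adjusted p = 0.151, edgeR quasi-likelihood test). Acsl1, the main long-chain acyl-CoA synthetase of liver, had 1123 and 886 CPM in WT and 1089 and 967 CPM under the DDI2-KO label. Here the WT libraries enclosed the others, and the estimate was 0.033 (standard error 0.19, adjusted p = 0.937 in that edgeR test), reversing to -0.019 with upper-quartile factors, -0.13 without WT library 2 and -0.051 without library 1 labelled DDI2-KO. Cpt1a, the carnitine palmitoyltransferase that controls entry into mitochondria, was at 325 and 316 CPM in WT and at 417 and 316 CPM under the DDI2-KO label, so that 1 library alone was higher. Its log2 fold change was 0.19, against 0.31 for Cpt2, its partner on the inner membrane, and 0.34 for Crot, the peroxisomal octanoyltransferase. None of these 3 passed the test, and the sign turned for Cpt1a without library 1 labelled DDI2-KO (-0.016) and for Crot without WT library 2 (-0.0096). Without that WT library Crat was at 0.32 and Cpt2 at 0.19, and under the length and GC offsets Cpt2 was at 0.16.

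Inside the mitochondrion the 11 enzymes of the spiral all had estimates above 0, from 0.050 to 0.79, with a median of 0.37. Of these, 0 passed edgeR's test and 5 were higher at an unadjusted p under 0.05, against 12.0% of all genes tested. DESeq2 called 2 (Echs1 and Decr1), against 4.32% of the genes it tested, and limma-voom called 0. With upper-quartile factors the estimate of Acadl turned to -0.0034, under the length and GC offsets to -0.071 and without WT library 2 to -0.018. The differences were uneven along the pathway. Echs1, the short-chain enoyl-CoA hydratase (ENSMUSG00000025465, minus strand of chromosome 7 of GRCm38, 140105710 to 140116476), had 190 and 198 CPM in WT and 372 and 300 CPM in the libraries labelled DDI2-KO. The WT libraries were nearly equal and both of the others were well above them. This gave a log2 fold change of 0.79 (standard error 0.18, Benjamini-Hochberg adjusted p = 0.0626, edgeR quasi-likelihood test). Without library 2 labelled DDI2-KO it was 0.95. Over the 15 alternatives, which include DESeq2 and limma-voom beside edgeR fits, the adjusted p of Echs1 ranged from 0.00325 to 0.246. At the other end, Acadl, the long-chain acyl-CoA dehydrogenase, had 240 and 218 CPM in WT and 236 and 239 CPM under the DDI2-KO label, with overlapping groups (log2 fold change 0.050, standard error 0.17, adjusted p = 0.890 in that edgeR test).

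Among the acyl-CoA dehydrogenases of the spiral, Acadvl had a larger estimate than Acadl, Acadm and Acads. Acadvl, for very long chains, had a log2 fold change of 0.49 (308 and 298 CPM in WT, 446 and 405 CPM under the DDI2-KO label), and its groups did not overlap. The estimates of Acadm, for medium chains, and Acads, for short chains, were 0.089 and 0.13, with overlapping groups, and turned to -0.052 for Acadm under the length and GC offsets (0.0080 without WT library 2) and to -0.25 for Acads without library 1 labelled DDI2-KO. Estimates also differed within the trifunctional protein. The beta subunit Hadhb was at 0.45, and at 0.69 under the length and GC offsets, where it was called. The alpha subunit Hadha was at 0.13, at 0.023 without library 1 labelled DDI2-KO and at 0.072 with upper-quartile factors. These genes lie head to head on chromosome 5. Counts of Acadvl and Hadhb are uncertain. Of the stretches of 50 bases in their transcripts, 26.9% and 19.7% also occur in other genes, searched on both strands. Those of Acadvl all occur in Dvl2, and exons of other genes overlap Acadvl on the other strand alone (42.9% of its exonic bases). For Acadvl this matters if counting did not use strand. Decr1 (0.65) and Eci1 (0.62), which handle unsaturated fatty acids, ranked next after Echs1, Acaa2, the thiolase of the last step, was at 0.37, and Hadh, a hydroxyacyl-CoA dehydrogenase, at 0.21 (-0.044 without library 1 labelled DDI2-KO, 0.12 under those offsets). Eci1 had a Benjamini-Hochberg adjusted p of 0.138 in the edgeR quasi-likelihood test. Over the 15 alternatives, which include DESeq2 and limma-voom beside edgeR fits, it ranged from 0.0305 to 0.474. The log2 fold change of Eci1 was 0.86 without library 2 labelled DDI2-KO and 0.34 without library 1 of that label. None of these differences between genes was tested.

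Electrons from the dehydrogenases pass to the electron transfer flavoprotein, made of Etfa and Etfb, and on to its dehydrogenase Etfdh. Of the 3 genes 0 passed edgeR's test and 2 were higher at an unadjusted p under 0.05, against 12.0% of all genes tested. DESeq2 called 1, against 4.32% of the genes it tested, and limma-voom 0. Etfb had 14.4 and 13.6 CPM in WT and 32.7 and 18.7 CPM in the libraries labelled DDI2-KO. Both of the latter were higher, library 1 by far more. Together they gave a log2 fold change of 0.88 (standard error 0.26, Benjamini-Hochberg adjusted p = 0.107, edgeR quasi-likelihood test). Over the 15 alternatives, which include DESeq2 and limma-voom beside edgeR fits, the adjusted p ranged from 0.00884 to 0.283. Without library 2 labelled DDI2-KO the log2 fold change was 1.23. Without library 1 of that label it was 0.42. The count of Etfb is uncertain, since 58.2% of its exonic bases are shared with another annotated gene on the same strand and 44.8% of its stretches of 50 bases occur elsewhere. Etfdh had 254 and 189 CPM in WT and 281 and 247 CPM under the DDI2-KO label. These groups overlapped (log2 fold change 0.25, standard error 0.20, adjusted p = 0.490 in that edgeR test), with 0.054 without WT library 2 and 0.49 without WT library 1. Etfa lay between, at 0.55, with 220 and 247 CPM in WT and 326 and 359 CPM under the DDI2-KO label.

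Of 6 peroxisomal enzymes 0 passed edgeR's test and 1 was higher at an unadjusted p under 0.05, against 12.0% of all genes tested. DESeq2 called 1 (Ehhadh), against 4.32% of the genes it tested, and limma-voom 0. The median log2 fold change of the 6 was 0.29, which fell to 0.16 without WT library 2 and 0.18 without library 1 labelled DDI2-KO. It was 0.46 without WT library 1 and 0.47 without library 2 labelled DDI2-KO. Ehhadh, the bifunctional enzyme of the classical peroxisomal route (ENSMUSG00000022853, minus strand of chromosome 16 of GRCm38, 21761287 to 21787807), had 283 and 368 CPM in WT and 630 and 557 CPM in the libraries labelled DDI2-KO. The groups stood well apart, at a log2 fold change of 0.87 (standard error 0.20, Benjamini-Hochberg adjusted p = 0.0613, edgeR quasi-likelihood test). Hsd17b4, the other bifunctional enzyme, which serves branched chains and bile acid precursors, was at 0.18 with overlapping groups (-0.035 without WT library 2, 0.011 under the length and GC offsets).

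The thiolase pair Acaa1a and Acaa1b lies on chromosome 9, and the 2 genes are hard to separate by short reads, as 30.5% of the stretches of 50 bases in Acaa1b transcripts also occur in Acaa1a. Acaa1a had 71.5 and 52.2 CPM in WT and 79.7 and 42.3 CPM under the DDI2-KO label, so that the libraries of the latter enclosed WT (log2 fold change -0.020, standard error 0.31, Benjamini-Hochberg adjusted p = 0.977, edgeR quasi-likelihood test). With library totals as the scaling its sign turned (0.026), as it did without WT library 1 (0.23) and without library 2 labelled DDI2-KO (0.37). Acaa1b was at 237 and 223 CPM in WT and at 381 and 197 CPM under the DDI2-KO label, again with library 1 high and library 2 low, and its log2 fold change of 0.33 turned to -0.22 without library 1. Decr2 (0.41) and Eci2 (0.26), for unsaturated chains, had both libraries labelled DDI2-KO above WT. Decr2 had 181 and 147 CPM in WT and 242 and 196 CPM under the DDI2-KO label. Eci2 had 147 and 109 CPM against 158 and 149 CPM, so that library 2 labelled DDI2-KO barely exceeded WT library 1. Without WT library 2 the estimates were 0.27 for Decr2 and 0.056 for Eci2, and that of Decr2 was 0.26 without library 1 labelled DDI2-KO and 0.24 under the length and GC offsets.

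The 5 thioesterases had a median log2 fold change of 0.79, and 1 of them passed edgeR's test. Over all genes tested edgeR called 2.53%. Of the 5, 3 were higher at an unadjusted p under 0.05, against 12.0% of all genes tested. DESeq2 called 2 (Acot3 and Acot4), against 4.32% of the genes it tested, and limma-voom called 0. Over the 15 alternatives Acot3 was called in 3 and Acot2 in 2. Without WT library 2 the median was 0.47. Acot4 (ENSMUSG00000052392, plus strand of chromosome 12 of GRCm38, 84038379 to 84048601), a peroxisomal enzyme that releases succinate and other dicarboxylic acids, had 33.4 and 26.6 CPM in WT and 50.2 and 63.7 CPM in the libraries labelled DDI2-KO. Both libraries under that label were higher, beyond the spread within either group. This was 30.0 ± 4.85 CPM (SD, n = 2) against 56.9 ± 9.53 CPM (SD, n = 2). The log2 fold change was 0.92 (standard error 0.19, Benjamini-Hochberg adjusted p = 0.0489, edgeR quasi-likelihood test). The call is at the threshold: Acot4 passed in 8 of 15 alternatives, and its adjusted p was 0.106 without WT library 1, 0.209 without WT library 2 and 0.0633 without library 2 labelled DDI2-KO in the same edgeR test.

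Acot2, a mitochondrial thioesterase, had 2.14 and 1.07 CPM in WT and 4.52 and 2.92 CPM in the libraries labelled DDI2-KO. All libraries were low, those under the DDI2-KO label less so (log2 fold change 1.21, standard error 0.40, Benjamini-Hochberg adjusted p = 0.124, edgeR quasi-likelihood test). Acot8, another peroxisomal thioesterase, had 4.25 and 3.33 CPM in WT and 7.26 and 4.05 CPM under the DDI2-KO label, with overlapping groups (log2 fold change 0.58, standard error 0.32, adjusted p = 0.307 in that edgeR test), and was at 0.096 without library 1 and 0.94 without library 2 of that label. Acot3 (0.79, peroxisomal) had 93.0 and 55.4 CPM in WT and 135 and 123 CPM under the DDI2-KO label, and cytosolic Acot1 (0.61) had 9.93 and 5.44 against 12.1 and 11.5 CPM. Without WT library 2 the estimates were 0.80 for Acot2, 0.47 for Acot3 and 0.24 for Acot1, and without WT library 1 they were 1.22 for Acot3 and 1.12 for Acot1. Acot1 to Acot4 stand in a row on the plus strand of chromosome 12. Of the stretches of 50 bases in their transcripts, 19.2% for Acot1, 27.7% for Acot2, 21.3% for Acot3 and 13.4% for Acot4 also occur in other genes, so their separate counts are uncertain. Acot1 and Acot2 share mostly with each other, whereas Acot4 shares 10.4% with 4732463B04Rik, and Acot3 shares most with Gm49366. The search covered both strands. Exons of other genes overlap 9.21% of the exonic bases of Acot4 on the other strand and 0.494% on the same strand. WT library 2 was the lowest of the 4 libraries for each of Acot1, Acot2, Acot3 and Acot4.

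For ketone bodies the list holds Bdh1, the dehydrogenase that interconverts acetoacetate and beta-hydroxybutyrate. It had 267 and 242 CPM in WT and 346 and 297 CPM in the libraries labelled DDI2-KO. The groups did not overlap, and the difference did not pass the test (log2 fold change 0.34, standard error 0.18, Benjamini-Hochberg adjusted p = 0.294, edgeR quasi-likelihood test), and the estimate was 0.21 under the length and GC offsets.

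To compare genes with each other, CPM were divided by the length of the principal transcript in kilobases. On this scale Acaa2 was the most abundant of the 34 in both groups, with 353 in WT and 458 under the DDI2-KO label, followed by Acsl1 with 258 and 264. Echs1 moved from rank 9 (125) to rank 5 (216) and Ehhadh from rank 11 (109) to rank 6 (199). Pdk4, with the largest difference, was among the least abundant, at rank 33 in WT (1.97) and rank 30 under the DDI2-KO label (9.77), and Acot2 was the lowest in both (0.731 and 1.69). Neighbours in this order often differed by less than the libraries of a group.

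**Figure D4:**
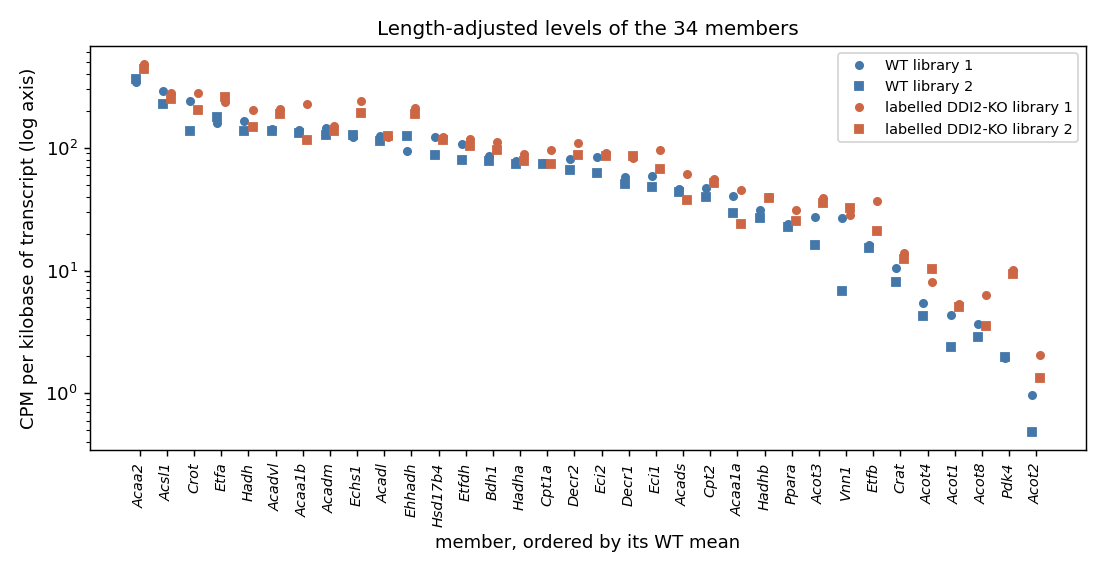
CPM per kilobase of transcript for the 34 genes in each library, on a log axis, ordered by the WT mean. Levels span from 353 (Acaa2) to 0.731 (Acot2) in WT, and Pdk4 shows the widest gap between the groups (1.97 against 9.77).

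Promoter sequences, from 250 bases before to 50 bases after the start of transcription, were taken from RefSeq on GRCm38.p6, which held 32 promoters of 29 of the 34 genes. They were searched on both strands for the half-site AGGTCA, bound by nuclear receptors, and for AGGTCANAGGTCA, the direct repeat with 1 base between that PPARalpha binds together with RXR, with up to 2 mismatches. The repeat contains the half-site on either side of that base, so the searches overlap. The half-site occurred in 7 of the 32 promoters (21.9%), against 16.3% of 32851 mouse promoters of the same length. These 7 belong to 6 genes, since Acot3 has 2 overlapping windows. The repeat occurred in 3 (9.38%, those of Acot4, Echs1 and Etfa), against 3.86%. A match describes letters and not binding. Shown are the promoters of both genes called and of the other genes with a match to the repeat, and not those with the half-site alone. Capitals mark the match to the repeat, which begins 13 bases before the start in Acot4, 83 in Echs1 and 77 in Etfa, and the Pdk4 window holds none.
Pdk4, chr6:5496229-5496528, minus strand: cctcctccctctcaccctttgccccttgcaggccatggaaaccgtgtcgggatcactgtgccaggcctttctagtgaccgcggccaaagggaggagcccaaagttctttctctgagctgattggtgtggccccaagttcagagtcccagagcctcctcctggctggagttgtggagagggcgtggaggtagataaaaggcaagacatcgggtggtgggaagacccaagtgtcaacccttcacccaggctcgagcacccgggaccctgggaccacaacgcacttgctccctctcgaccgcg
Acot4, chr12:84038129-84038428, plus strand: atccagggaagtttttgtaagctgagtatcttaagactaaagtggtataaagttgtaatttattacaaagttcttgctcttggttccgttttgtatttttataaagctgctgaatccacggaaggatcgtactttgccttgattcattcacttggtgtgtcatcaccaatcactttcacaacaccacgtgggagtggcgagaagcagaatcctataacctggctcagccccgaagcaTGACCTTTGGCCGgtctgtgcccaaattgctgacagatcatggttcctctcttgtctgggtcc
Echs1, chr7:140116372-140116671, minus strand: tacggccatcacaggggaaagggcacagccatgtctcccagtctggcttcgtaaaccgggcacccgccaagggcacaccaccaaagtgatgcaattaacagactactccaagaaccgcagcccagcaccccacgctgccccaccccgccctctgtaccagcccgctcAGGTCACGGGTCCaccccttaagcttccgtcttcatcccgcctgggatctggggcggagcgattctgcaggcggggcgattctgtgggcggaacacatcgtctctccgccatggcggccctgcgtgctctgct
Etfa, chr9:55512194-55512493, minus strand: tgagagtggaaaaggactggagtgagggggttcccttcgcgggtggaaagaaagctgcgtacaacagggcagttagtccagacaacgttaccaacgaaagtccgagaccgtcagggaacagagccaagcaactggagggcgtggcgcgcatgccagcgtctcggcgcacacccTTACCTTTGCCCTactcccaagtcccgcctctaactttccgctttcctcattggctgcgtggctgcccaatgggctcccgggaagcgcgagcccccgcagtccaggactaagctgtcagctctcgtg

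Genes of related lists were measured in the same way. Over all genes tested, 48.7% had a higher estimate, 12.0% were higher at an unadjusted p under 0.05 and 2.53% were called, the background for the counts of these lists. Of 15 peroxins, the proteins that build peroxisomes, 13 had a higher estimate (median 0.37), 8 had an unadjusted p under 0.05 and were higher, and 1 passed the edgeR test, against 5 by DESeq2 and 0 by limma-voom. This was Pex11a, which drives peroxisome division and is a target of PPARalpha. It had 48.6 and 36.6 CPM in WT and 90.2 and 76.4 CPM in the libraries labelled DDI2-KO. Both were above WT by more than the groups' own spread (log2 fold change 0.97, standard error 0.19, Benjamini-Hochberg adjusted p = 0.0440, edgeR quasi-likelihood test). It did not pass without WT library 1 (0.0721), without WT library 2 (0.183) or without library 1 labelled DDI2-KO (0.0709), nor by limma-voom (0.0596), and was called in 9 of 15 alternatives.

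Of 8 genes for the making, use and export of ketone bodies, 7 had a higher estimate, DESeq2 called 2 and limma-voom 0, and edgeR called 1, Slc16a1, the monocarboxylate transporter that carries ketone bodies and lactate across the membrane. It had 46.3 and 37.7 CPM in WT and 82.3 and 125 CPM in the libraries labelled DDI2-KO, so that the groups were far apart although the latter differed. The log2 fold change was 1.31 (standard error 0.23, Benjamini-Hochberg adjusted p = 0.0404, edgeR quasi-likelihood test). The adjusted p was 0.0583 without WT library 1, 0.0908 without WT library 2 and 0.0524 by limma-voom, and Slc16a1 was called in 11 of 15 alternatives.

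Of 16 other targets of PPARalpha tested, 11 had a higher and 5 a lower estimate, with a median of 0.68. At an unadjusted p under 0.05 there were 5 higher and 2 lower, and at an adjusted p under 0.05 in the edgeR quasi-likelihood test 0 higher and 1 lower, while DESeq2 called 4 and limma-voom 0. WT library 1 exceeded WT library 2 in 16 of the 16. Cyp4a32, a fatty acid omega-hydroxylase of the Cyp4a family, had 16.1 and 11.9 CPM in WT and 6.10 and 6.18 CPM in the libraries labelled DDI2-KO, both below WT (log2 fold change -1.19, standard error 0.22, Benjamini-Hochberg adjusted p = 0.0406, edgeR quasi-likelihood test). It did not pass without WT library 1 (0.182) or without library 1 labelled DDI2-KO (0.0604), nor by limma-voom (0.0591), and was called in 11 of 15 alternatives. Its paralog Cyp4a14, chosen after its values were seen, had 804 and 358 CPM in WT and 164 and 239 CPM under the DDI2-KO label, also without overlap (log2 fold change -1.53, adjusted p = 0.105 in that edgeR test). With 1 library left out this ranged from -0.83 without WT library 1 to -2.00 without WT library 2, where it passed (adjusted p = 0.00342 in that edgeR test, against up to 0.391 over the alternatives). In the same list Plin2, the lipid droplet protein, likewise chosen after its values were seen, had 342 and 206 CPM in WT and 685 and 437 CPM under the DDI2-KO label (log2 fold change 1.04, adjusted p = 0.107 in that edgeR test, and 0.00468 to 0.302 over the alternatives). With 1 library left out, the log2 fold change of Plin2 ranged from 0.68 to 1.45. Pdk4 and Cyp4a32, both listed as targets of PPARalpha, had estimates of opposite sign.

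**Figure D5:**
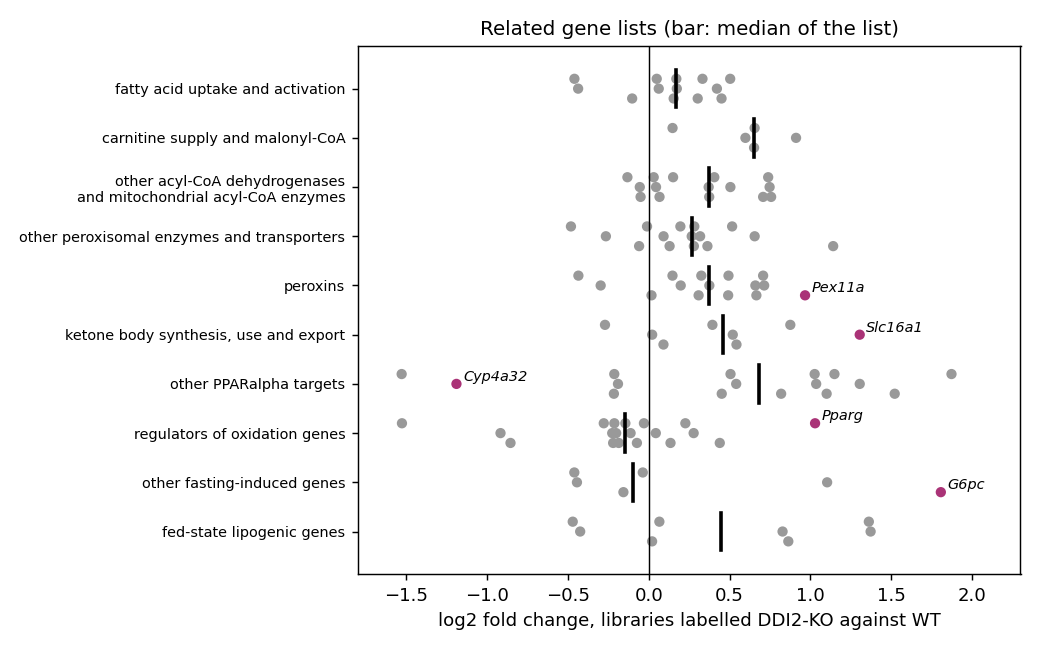
Log2 fold change of each tested gene in 10 related lists (libraries labelled DDI2-KO against WT), with a bar for the median of each list. Purple marks the 5 genes with an adjusted p under 0.05, of which Cyp4a32 (-1.19) is lower and Pex11a (0.97), Slc16a1 (1.31), Pparg (1.03) and G6pc (1.81) are higher.

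Among 19 regulators of oxidation genes the median was -0.15, with 6 higher and 13 lower estimates, and edgeR called 1, DESeq2 3 and limma-voom 0. Pparg, the PPAR family member best known from fat cells, had 9.67 and 12.2 CPM in WT and 21.8 and 22.8 CPM in the libraries labelled DDI2-KO. Both were well above WT (log2 fold change 1.03, standard error 0.19, Benjamini-Hochberg adjusted p = 0.0404, edgeR quasi-likelihood test). The adjusted p was 0.196 without WT library 1, 0.0623 without WT library 2 and 0.0524 by limma-voom, and Pparg was called in 11 of 15 alternatives. The coactivator gene Ppargc1a, chosen after its values were seen, had 15.9 and 13.3 CPM in WT and 7.38 and 8.79 CPM under the DDI2-KO label. It lay lower without overlap and did not pass (log2 fold change -0.86, standard error 0.20, adjusted p = 0.0650 in that edgeR test, and 0.00759 to 0.309 over the alternatives).

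Of 6 other genes known to rise in fasting, 2 had a higher and 4 a lower estimate, and edgeR, DESeq2 and limma-voom each called 1. G6pc, the glucose-6-phosphatase that releases glucose from liver, had 119 and 71.5 CPM in WT and 259 and 409 CPM in the libraries labelled DDI2-KO. The groups were far apart (log2 fold change 1.81, standard error 0.31, Benjamini-Hochberg adjusted p = 0.0429, edgeR quasi-likelihood test). Without library 1 labelled DDI2-KO the adjusted p was 0.0567, without library 2 it was 0.0947, and under the length and GC offsets 0.0570, with G6pc called in 12 of 15 alternatives. Among 8 genes of the fed, fat-making state, 0 were called by edgeR, 2 were higher at an unadjusted p under 0.05, DESeq2 called 2 and limma-voom 0. All 8 were lower in WT library 1 than in WT library 2, opposite to the oxidation genes, with medians of -0.70 and 0.47 (log2 over the WT mean). Under the DDI2-KO label the order was that of the oxidation genes. There the medians were 0.68 and -0.24 in libraries 1 and 2, and 5 of the 8 were higher in library 1. Scd1, the stearoyl-CoA desaturase, had 4127 and 13732 CPM in WT and 23177 and 23061 CPM under the DDI2-KO label, and WT library 1 stood far below the other libraries. Its log2 fold change was 1.37 (Benjamini-Hochberg adjusted p = 0.277, edgeR quasi-likelihood test). It was 0.75 without WT library 1 and 2.49 without WT library 2, where it passed (adjusted p = 0.0000946 in that edgeR test, against up to 0.595 over the alternatives). Fasn, the fatty acid synthase, had 353 and 533 CPM in WT and 578 and 320 CPM under the DDI2-KO label, with overlapping groups and a log2 fold change of 0.020 that turned to -0.033 with upper-quartile factors, -0.25 without WT library 1 and -0.46 without library 1 labelled DDI2-KO.

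Markers of other liver cells gave the following. The 6 Kupffer cell markers summed to 581 and 502 CPM in WT and to 718 and 615 CPM in the libraries labelled DDI2-KO, with Cd5l as the most abundant, 5 of 6 had a higher estimate, and 0 of 6 were called by edgeR, 1 had an unadjusted p under 0.05, DESeq2 called 1 and limma-voom 0. The 5 sinusoidal endothelial markers summed to 338 and 310 CPM in WT and to 307 and 302 CPM under the DDI2-KO label, led by Clec4g. Of the 5, 3 had a higher and 2 a lower estimate (median 0.039), and 1 was called. This was Stab2, a scavenger receptor, with 73.7 and 61.2 CPM in WT and 32.9 and 29.9 CPM under the DDI2-KO label (log2 fold change -1.10, standard error 0.17, Benjamini-Hochberg adjusted p = 0.0288, edgeR quasi-likelihood test, and 0.109 without WT library 1). The adipocyte markers Lep, Cfd, Plin1 and Retn were at 0 reads in every library, and Adipoq and Ucp1 had at most 3 reads in each. The 7 hepatocyte markers, led by Alb, summed to 158397 and 183570 CPM in WT and to 149771 and 152381 CPM under the DDI2-KO label. Without Alb the sums overlapped (23993 and 28981 against 27381 and 23893 CPM). Of the 7, 2 had a higher and 5 a lower estimate, 1 was higher at an unadjusted p under 0.05, and edgeR, DESeq2 and limma-voom called 0.

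The zones of the liver lobule differ in fat metabolism. Inside the WT group the pericentral markers moved with the genes of oxidation, and the periportal markers moved the opposite way. The 8 pericentral markers, led by Cyp2e1, summed to 11801 and 6888 CPM in WT libraries 1 and 2 and to 11216 and 9509 CPM in libraries 1 and 2 labelled DDI2-KO. WT library 2 was the lowest library, and 8 of the 8 genes were lower in it than in WT library 1. The 6 periportal markers, led by Ass1, summed to 3176 and 4359 CPM in WT and to 3163 and 2636 CPM under the DDI2-KO label, with WT library 2 the highest and 0 of the 6 lower in it than in WT library 1. Between the groups, 6 of the 8 pericentral markers had a higher estimate and 2 a lower one (median log2 fold change 0.34). All 6 periportal markers had a lower estimate (median -0.44). By edgeR 0 genes of either list were called. At an unadjusted p under 0.05, 3 pericentral markers were higher and 1 periportal marker was lower, and DESeq2 and limma-voom called 0. The part of these zone markers in the differences was not tested.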

How the data were processed

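Liver mRNA was measured in 4 libraries, 2 a group. Their labels number them as replicates without saying that they came from separate mice. The study's figure legend describes the sequencing data as coming from 2 biological replicates. The p-values measure the spread between these libraries. The authors deposited raw, unnormalized read counts for Ensembl genes, 1 table a library. The submitters' processing notes name cutadapt 1.8, STAR 2.5.2b, HTSeq 0.6.1 and the build GRCm38, and the annotation release and counting mode are not given in the sources used here. The kit keeps strand. If counting did not use it, reads of a gene and an overlapping gene on the other strand cannot be told apart. This bears most on Acadvl, with 42.9% of its exonic bases overlapped on the other strand. Summary lines that name no gene were left out of library sizes and tests. Reads in no gene were 2.53% to 5.11% of the reads on genes, ambiguous reads 2.50% to 3.66% and alignments that were not unique 47.3% to 65.8%. Symbols and coordinates came from the GENCODE annotation of GRCm38, which held 48349 of the 48709 identifiers.

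These were analysed with edgeR 4.0.16 (R 4.3.3), using TMM scaling, filterByExpr, robust glmQLFit and glmQLFTest, genotype alone in the design, and Benjamini-Hochberg adjustment over the 13699 genes kept. The standard error was the size of the log2 fold change over the square root of F. The study's methods name limma, which was run as an alternative (limma-voom, limma 3.58.1), as was DESeq2 1.42.0. Alternatives were other scalings and filters, no robust estimation, offsets for length and GC content (lowess span 0.3), a replicate block, a threshold of 0.10, each library left out and, chosen after seeing the data, a fit without mitochondrially encoded genes. The fits were tested on simulated counts. With 3 counts as the smallest detectable level, the floor was 0.0892 to 0.131 CPM. A check for duplicate deposits gave a chi-square of 69.7 per degree of freedom between the WT libraries and 37.4 between those labelled DDI2-KO. None was a duplicate. This check alone does not show biological replication, for which the study's own statement is the source.

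The members and lists were chosen with earlier results of these data known. Full values are given for members past an adjusted p of 0.05 and, in each step, for the largest and smallest log2 fold change. From each related list they are given for genes past that threshold or else for the 2 with the highest mean CPM. Some genes of this pathway that are in the related lists, 1 of them among those 2, are counted in their lists but are not reported here by name. Values were added for other members and for genes named as chosen after their values were seen. Cadmium-treated mice and protein data were not analysed here.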

Additional observations from a re-analysis of the deposited data

How the results depend on the processing

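Over 15 alternatives, 464 of 510 values for single genes of the list kept their direction and their side of the threshold, 7 lost the call (Acot4), 23 gained one and 16 turned direction, in 10 genes. The number of genes called was 346 over all genes and 2 of the 34. It was 911 and 7 with DESeq2, 136 and 1 with limma-voom, 1544 and 9 when low counts were not filtered, 152 and 1 without robust estimation, and 736 and 4 under the length and GC offsets. The 34 also gave 1 with upper-quartile factors or a mean of at least 1 CPM, and 5 at an adjusted p under 0.10. With the replicate number as a replicate block the counts were 1108 and 7. The labels do not say that a number pairs mice, and deviations of the libraries numbered 1 had a correlation across genes of 0.0618, so the numbers were not taken as pairs. With each library left out, where the lone library is assumed to vary like the other group, 153 to 631 genes and 1 to 4 of the 34 were called, 28 to 34 had a higher estimate, and the median ranged from 0.25 to 0.52. Upper-quartile factors, with which 39.7% of calls were higher against 52.6%, moved the median of all genes to -0.068 and that of the 34 to 0.34, with 31 higher. Library totals gave 34 higher, and 60.8% of calls higher. Direction turned for Acsl1 (-0.019) and Acadl (-0.0034) with upper-quartile factors, for Acadl (-0.071) and Acadm (-0.052) with the offsets, and for Acaa1a (0.026) with library totals. With 1 library left out, values ranged from -0.13 to 0.22 for Acsl1, -0.016 to 0.39 for Cpt1a, -0.0096 to 0.81 for Crot, -0.018 to 0.12 for Acadl, -0.25 to 0.45 for Acads, -0.044 to 0.44 for Hadh, -0.035 to 0.44 for Hsd17b4, -0.54 to 0.37 for Acaa1a and -0.22 to 0.74 for Acaa1b. Slc27a2 was -0.0031 with upper-quartile factors, -0.084 with offsets and -0.11 to 0.23 with a library left out. Cat was -0.048 with offsets. Fasn was -0.033 with upper-quartile factors, -0.012 with limma-voom, -0.011 with the replicate block and -0.46 to 0.39 with a library left out. The causes of these shifts were not tested. Each of the 34 genes had at least 33 reads in each library. There were 2 libraries a group, and the shared shift of the 34 genes between libraries of 1 group means that their number adds little certainty. Sequence shared with other genes, paralogs or not, limits what the single counts of thioesterases and thiolases show.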

Other observations

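Genes around the oxidation pathway gave further values. Fatty acid uptake and activation had a median log2 fold change of 0.17 over 13 genes tested, with 0 called by edgeR, 2 higher and 2 lower at an unadjusted p under 0.05, and 0 called by DESeq2 or limma-voom. Fabp1, the liver fatty acid binding protein, had 4568 and 4255 CPM in WT and 3882 and 4333 CPM in the libraries labelled DDI2-KO. Slc27a2, a very long-chain acyl-CoA synthetase, had 1027 and 817 CPM in WT and 1053 and 855 CPM under the DDI2-KO label. Both genes overlapped between the groups. Carnitine supply and malonyl-CoA had a median of 0.65 over 5 genes, with 0 called by edgeR, 4 higher at an unadjusted p under 0.05, 1 called by DESeq2 and 0 by limma-voom. Acacb and Acaca encode the carboxylases that make malonyl-CoA, the inhibitor of carnitine palmitoyltransferase 1. Acacb had 74.5 and 74.2 CPM in WT and 178 and 102 CPM under the DDI2-KO label, and Acaca had 48.1 and 79.6 CPM against 115 and 85.6 CPM. In both the libraries labelled DDI2-KO were the higher ones. Neither passed the test (Benjamini-Hochberg adjusted p = 0.0937 for Acacb and 0.195 for Acaca, edgeR quasi-likelihood test). Acacb was called in 5 of 15 alternatives (adjusted p 0.00536 to 0.269), and its log2 fold change of 0.91 was 0.46 without library 1 labelled DDI2-KO and 1.27 without library 2, where it was called. That of Acaca, 0.65, was 0.34 without WT library 1 and 1.06 without WT library 2.

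The 15 genes for other acyl-CoA dehydrogenases and mitochondrial acyl-CoA enzymes had a median of 0.37. Of these, edgeR called 0, 6 were higher at an unadjusted p under 0.05, DESeq2 called 1 and limma-voom 0. Gcdh, the glutaryl-CoA dehydrogenase of lysine breakdown, had 433 and 389 CPM in WT and 633 and 534 CPM in the libraries labelled DDI2-KO, and Acad11, an acyl-CoA dehydrogenase, had 317 and 262 CPM against 369 and 380 CPM. The groups did not overlap in either, and the log2 fold change of Acad11, 0.37, was 0.24 without WT library 2. The 15 other peroxisomal enzymes and transporters had a median of 0.27, with 0 called by edgeR, 2 higher and 1 lower at an unadjusted p under 0.05, and 0 called by DESeq2 or limma-voom. Catalase, encoded by Cat, had 2634 and 2415 CPM in WT and 2870 and 2649 CPM under the DDI2-KO label, a log2 fold change of 0.13 that turned to -0.048 with offsets for length and GC content.

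Stellate cell markers (6 genes, led by Dcn) summed to 475 and 500 CPM in WT and 405 and 461 CPM under the DDI2-KO label, biliary markers (5 genes, led by Spp1) to 56.4 and 52.8 against 70.4 and 68.7 CPM, and leukocyte markers (5 genes, led by Ptprc) to 25.2 and 25.4 against 18.1 and 20.8 CPM. In these lists edgeR, DESeq2 and limma-voom called 0 genes. At an unadjusted p under 0.05, 2 stellate markers and 1 leukocyte marker were lower and 1 biliary marker was higher.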
